A study of Mus musculus with 4 samples.

Results

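The transcripts described here encode the enzymes and transporters of glycolysis, of the pentose phosphate pathway and of pyruvate use, together with the hypoxia-inducible factors and genes they control. The set held 34 genes chosen by name, and all 34 were found among the 28032 listed features that carry an exon length. They were read in CD4+Foxp3+ regulatory T cells (Tregs), CD4 T cells that hold back the rest of the immune system, sorted by flow cytometry from C57BL/6 mice aged 8 weeks. The 4 libraries were 1 from the spleen and 1 from the tracheal (airway-draining) lymph nodes of wild-type (WT) mice, and the same pair from Csnk2b-deficient mice (Csnk2b-/- in the labels). Csnk2b encodes the regulatory subunit of protein kinase CK2, a constitutively active serine and threonine kinase. The labels used here do not say how or in which cells Csnk2b was removed, nor whether a library came from 1 animal or from pooled animals. Each genotype had 2 libraries, and each genotype and tissue had 1 library. P-values therefore rest on how far the genotype difference disagreed between the 2 tissues, moderated by the spread of all genes. That spread may be technical.

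Glycolysis splits glucose into pyruvate through a fixed chain of enzymes, lactate dehydrogenase turns pyruvate into lactate, and the pyruvate dehydrogenase complex passes it to the mitochondria instead. The pentose phosphate pathway branches off at glucose phosphate and supplies NADPH and ribose. In low oxygen the prolyl hydroxylases no longer mark the alpha subunits of the hypoxia-inducible factors for destruction, and these factors then raise transcription of glucose transporters, glycolytic enzymes and Pdk1. Activated T cells are known for high glycolysis, and Hif1a is known to favour inflammatory T helper cells over Tregs.

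Total exon reads ran from 4737814 to 6750695 per library, and 78.3% to 86.2% of them were uniquely placed. Genes with at least 1 read numbered 15515 and 14962 in WT and deficient spleen. In the lymph node they numbered 12157 in WT, the fewest of any library, and 14335 in deficient. Levels are in CPM (exon reads scaled to a common library size) with edgeR's TMM factors, and a change is tested with edgeR on all 11113 genes that passed its filter. Csnk2b itself had 649 reads in WT and 148 in Csnk2b-deficient spleen, and 667 and 283 in the lymph node, a log2 fold change of -1.54 ± 0.26 (SE) with an edgeR adjusted p of 0.0658, which does not pass 0.05. Foxp3, the lineage factor of Tregs, had 6395, 2160, 2334 and 562 reads in WT spleen, deficient spleen, WT lymph node and deficient lymph node (log2 fold change -1.66, edgeR adjusted p = 0.0375), and 25.9% of its reads were uniquely placed. That share was 25.5%, 35.8%, 14.6% and 39.0% in the same order. It was larger in both deficient libraries, so the decrease of Foxp3 was smaller on uniquely placed reads. The summed level of the 7 Treg markers was 3699 to 4200 CPM in spleen and 6367 to 6477 CPM in the lymph node. Markers of other cells were not even across libraries. The 6 myeloid markers summed to 14.2 and 10.7 CPM in WT and deficient spleen and to 49.6 and 319 CPM in WT and deficient lymph node, where Lyz2 gave 187 and 1291 reads. The 7 proliferation markers summed to 178, 238, 146 and 317 CPM in the same order, with 6 of 7 higher in the deficient library of both pairs. The 5 B cell markers summed to 15.6 to 17.0 CPM in spleen and 98.7 to 148 CPM in the lymph node, mostly Cd79b, with Pax5 at 0 reads in all 4. The 4 CD8 T and NK cell markers summed to 15.2 to 21.2 CPM in spleen and 46.0 to 53.8 CPM in the lymph node, with Ncr1 at 0 reads in all 4. Red cell and platelet markers reached 41.8 CPM in WT lymph node and at most 3.95 CPM elsewhere, and Pf4 and Ppbp were at 0 reads in all 4.

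The 34 genes together took 0.411% of exon reads in WT spleen, 0.394% in deficient spleen, 0.708% in WT lymph node and 0.842% in deficient lymph node. The spleen libraries lay close together and both lymph node libraries lay above them. Genes were ranked by CPM per kilobase of exon, which allows for length but includes multiply placed reads. Ldha stood first in every library, with 115, 112, 599 and 803 CPM per kilobase in WT spleen, deficient spleen, WT lymph node and deficient lymph node. Gpi1, Aldoa and Pgk1 were among the first 7 of 34 in every library, and so was Eno1. Only 28.8% of the Pgk1 reads and 18.1% of the Eno1 reads were uniquely placed. The share was under 50% for 7 of the 34 genes, which limits comparison of ranks between genes. Ddit4, an inhibitor of the growth kinase complex mTORC1, was second in WT spleen with 110.0 CPM per kilobase and 23rd in WT lymph node with 5.08. At the low end, Vegfa, the blood vessel growth factor, had 2, 1, 0 and 0 reads and was the only one of the 34 that did not pass the filter on low counts. Hk2 was at 0.532 to 0.918 CPM per kilobase.

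**Figure D1:**
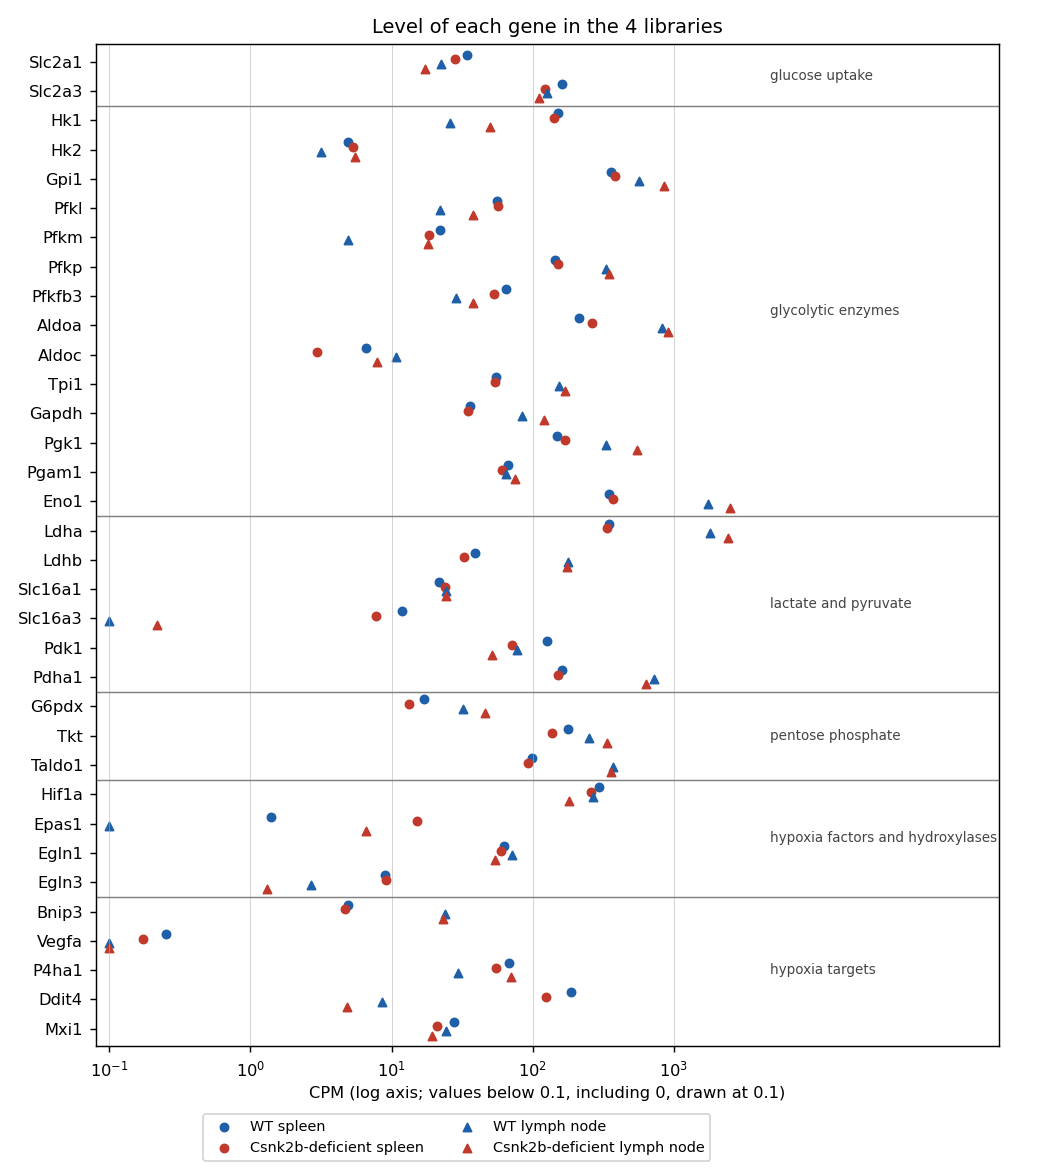
Level of each of the 34 genes in CPM (log axis) in the 4 libraries, grouped by role. Circles are spleen and triangles lymph node, blue is WT and red Csnk2b-deficient, with 1 library per symbol and values under 0.1 drawn at 0.1. For most glycolytic enzymes the symbols of the 2 tissues stand further apart than those of the genotypes, while Epas1 separates red from blue.

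Between genotypes, none of the 33 tested genes passed the threshold of 0.05 on the edgeR adjusted p, in either direction. Of all 11113 genes tested 0.144% passed, 0.126% higher and 0.018% lower in the deficient Tregs. DESeq2 and limma-voom called 0 of the 33 as well, and the lowest adjusted p of any of them in any setting tried was 0.0738. At an unadjusted edgeR p below 0.05 stood 4 of 33, against 4.88% of all genes. These were Epas1 and Pgk1, which were higher, and Pdk1 and Ddit4, which were lower. Epas1 passed the filter on low counts only through the deficient libraries. In bulk libraries such as these, a different level per cell and a different number of cells that carry the RNA cannot be told apart. The median log2 fold change of the 33 was 0.04, beside 0.01 for all genes tested. Of the 33, 9 were higher in the deficient library of both tissues and 12 lower in both, beside 27.7% and 29.16% of all genes. Both deficient libraries lay above both WT libraries for 2 of 33 (Hk2 and Epas1), where 7.18% of all genes did so. Both lay below for 5 of 33 (Slc2a3, Pdk1, Hif1a, Egln1 and Mxi1), where 7.08% of all genes did so. These counts are on total exon reads, and on uniquely placed reads the genotypes overlapped for Hif1a.

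The tissues were not alike. In the spleen pair the median log2 ratio of deficient to WT was -0.09 over the 33 genes and -0.02 over all genes, and in the lymph node pair it was 0.14 and 0.03. In the spleen 1 of 33 was more than 2-fold higher (Epas1), where 2.45% of all genes were, and 1 was more than 2-fold lower (Aldoc), where 1.73% were. In the lymph node 3 of 33 were more than 2-fold higher (Epas1, Pfkm and P4ha1), where 16.1% of all genes were, and 0 were lower, where 10.1% were. A ratio of 2 single libraries has no replicate check. Log2 CPM correlated at r = 0.978 in the spleen pair and r = 0.899 in the lymph node pair. WT lymph node had the fewest genes with a read, and its part in the lymph node ratios was not tested. The 95% counting interval of each ratio, an exact binomial interval on the reads, covers counting error only. In the spleen it lay above 1 for 5 of 33 and below 1 for 12 of 33, where it did so for 13.2% and 15.8% of all genes. In the lymph node it lay above 1 for 14 and below 1 for 6 of 33, where it did so for 32.8% and 30.5% of all genes. Whether the difference between the tissues exceeds the spread between animals could not be tested with 1 library each, and the part of the uneven myeloid and proliferation markers in it was not tested.

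**Figure D2:**
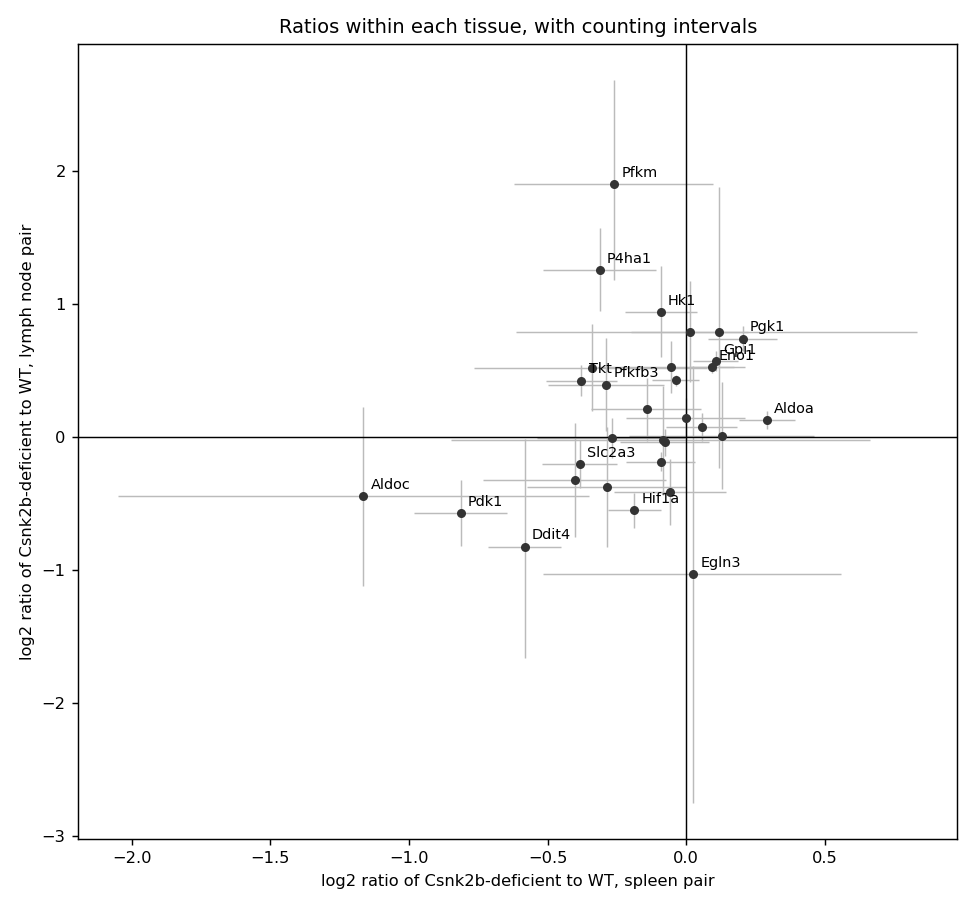
Log2 ratio of Csnk2b-deficient to WT level in the lymph node pair against that in the spleen pair for 31 genes, with bars for the 95% counting intervals. Epas1, Slc16a3 and Vegfa are left out because WT lymph node had 0 reads. Most glycolytic enzymes sit above the horizontal line at 0 and near the vertical one, and Pdk1 and Ddit4 sit at lower left.

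Both glucose transporters were lower in the deficient library of each pair, and neither was called. Slc2a3, the high-affinity carrier also called GLUT3, stood at 160.1 and 123 CPM in WT and deficient spleen and at 127 and 110 CPM in WT and deficient lymph node. The genotypes did not overlap, and the ratio was 0.766 (95% counting interval 0.698 to 0.841) in spleen and 0.866 (0.764 to 0.981) in the lymph node. Its log2 fold change was -0.30 ± 0.23 (SE), with an edgeR adjusted p of 0.893. Slc2a1, the widespread carrier GLUT1, had 34.4, 28.2, 22.5 and 17.3 CPM in the same order. Both spleen libraries lay above both lymph node libraries. Of the Slc2a1 reads 47.4% were uniquely placed.

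The 14 genes of the glycolytic chain were split evenly around a ratio of 1 in the spleen pair and mostly higher in the deficient library of the lymph node pair. Their median log2 ratio was 0.01 in spleen and 0.52 in the lymph node, where 13 of 14 were higher, and 7 were higher in both tissues. Of all 11113 genes tested, 5789 were higher in the lymph node pair, with a median of 0.03, and 27.7% were higher in both. They took 0.195% and 0.209% of exon reads in WT and deficient spleen, and 0.362% and 0.468% in WT and deficient lymph node. None was called. Aldoc was the exception in the lymph node. This brain-type aldolase had 52 and 17 reads in WT and deficient spleen and 44 and 36 in the lymph node.

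Pgk1, phosphoglycerate kinase, which makes the first ATP of the chain (mm9 chrX:103382439-103399038), had the smallest unadjusted p of the 14, at 0.0461. It stood at 148 and 170.2 CPM in WT and deficient spleen and at 328 and 547 CPM in WT and deficient lymph node. Each deficient library lay above the WT library of its tissue, by 1.15 times (95% counting interval 1.06 to 1.26) in spleen and 1.67 times (1.56 to 1.78) in the lymph node, and across tissues the genotypes overlapped. The log2 fold change was 0.47 ± 0.21 (SE), edgeR adjusted p = 0.890, and 28.8% of its reads were uniquely placed.

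Eno1, enolase, gave the most reads of any of the 34 in the deficient lymph node, with 2747, 2146, 7106 and 11368 reads in WT spleen, deficient spleen, WT lymph node and deficient lymph node. Its ratio was 1.07 (95% counting interval 1.01 to 1.13) in spleen and 1.43 (1.39 to 1.48) in the lymph node. The log2 fold change was 0.31 ± 0.18 (SE), edgeR adjusted p = 0.890, and 18.1% of its reads were uniquely placed. Gpi1, the isomerase that follows hexokinase, had 357, 384, 569 and 843 CPM in the same order, ratios of 1.08 and 1.48. Aldoa, the main aldolase, had 214, 262, 828 and 902 CPM, with a ratio of 1.22 in the spleen pair, larger than the 1.09 of the lymph node pair. The other enzymes differed little in the spleen. Tpi1, triose phosphate isomerase, had ratios of 0.998 and 1.10 in spleen and lymph node, Gapdh 0.964 and 1.44, and Pgam1, the mutase before enolase, 0.906 and 1.15. Uniquely placed reads made up 46.2% for Gapdh and 17.5% for Pgam1. On those alone the lymph node log2 ratio was 0.27 for Gapdh (0.52 on total reads) and 0.06 for Pgam1 (0.20). For Eno1 it was 0.64 (0.52).

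Hexokinase and phosphofructokinase, the regulated entry steps, included the largest lymph node ratios of the chain. Hk1 stood at 151 and 142 CPM in WT and deficient spleen and at 25.9 and 49.5 CPM in WT and deficient lymph node, a ratio of 0.939 (95% counting interval 0.858 to 1.03) and of 1.91 (1.51 to 2.43). The muscle-type subunit Pfkm had 173, 106, 20 and 83 reads, a ratio of 0.836 (0.650 to 1.07) in spleen and 3.72 (2.26 to 6.41) in the lymph node, where WT was the lowest of the 4 libraries. The liver-type Pfkl had 55.7, 56.2, 22.0 and 37.9 CPM, while the platelet-type Pfkp, the most abundant of the 3, had 144, 150.0, 328 and 344 CPM and ratios of 1.04 and 1.05. Pfkfb3, which makes the allosteric activator of phosphofructokinase, had 65.1, 53.3, 28.6 and 37.5 CPM, lower in the deficient spleen and higher in the deficient lymph node. None of these was called, and both lymph node libraries were low for Hk1, Pfkl and Pfkfb3. Hk2, the inducible hexokinase, had 39, 31, 13 and 25 reads.

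Among the genes that decide the fate of pyruvate, Pdk1 had the smallest unadjusted p of those of the 33 genes that were lower in the deficient Tregs. Pdk1, the kinase that switches off pyruvate dehydrogenase (mm9 chr2:71711281-71741915), stood at 126 CPM in WT and 71.6 CPM in deficient spleen, and at 77.0 CPM in WT and 51.7 CPM in deficient lymph node. Both deficient libraries were below both WT libraries. The ratio was 0.569 (95% counting interval 0.506 to 0.639) in spleen and 0.672 (0.565 to 0.798) in the lymph node. The log2 fold change was -0.70 ± 0.25 (SE) with an unadjusted p of 0.0195 and an adjusted p of 0.890 by edgeR. Uniquely placed reads made up 99.8% of the Pdk1 reads. Pdha1, the catalytic subunit that Pdk1 phosphorylates, had 162, 152, 722 and 634 CPM, ratios of 0.938 and 0.878. Ldha, which reduces pyruvate to lactate (mm9 chr7:54096845-54110997), had 344, 335, 1786 and 2395 CPM, a ratio of 0.974 (0.919 to 1.03) in spleen and 1.34 (1.30 to 1.38) in the lymph node. Its heart-type partner Ldhb had 39.2, 32.5, 176 and 175 CPM, with no such increase in the lymph node. The lactate carrier Slc16a1 had 21.7, 23.7, 24.2 and 24.3 CPM. Slc16a3, the hypoxia-inducible lactate exporter, had 94 and 45 reads in spleen, a ratio of 0.653 (0.447 to 0.941), and 0 and 1 read in the lymph node, too few for a ratio.

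Of the pentose phosphate enzymes, Tkt and G6pdx had ratios on opposite sides of 1 in the 2 tissues. Tkt, transketolase of the non-oxidative branch, stood at 177 and 136 CPM in WT and deficient spleen and at 250.3 and 335 CPM in WT and deficient lymph node. Deficient was the lower library in spleen, at 0.769 times WT (95% counting interval 0.704 to 0.840), and the higher one in the lymph node, at 1.34 times (1.24 to 1.45). G6pdx, glucose phosphate dehydrogenase and entry enzyme of the oxidative branch, had 133, 77, 131 and 209 reads, ratios of 0.790 (0.588 to 1.05) and 1.43 (1.14 to 1.79). Of its reads 46.5% were uniquely placed, and it overlaps Ikbkg. Taldo1, transaldolase, had 98.2, 93.1, 371 and 360.0 CPM, and its ratios were 0.948 and 0.972. None of the 3 was called between genotypes.

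Among the hypoxia factors, Epas1, the alpha subunit HIF2A (mm9 chr17:87153247-87232750), had the largest fold of the 33 in both tissues. It gave 11 reads in WT and 87 in deficient spleen, and 0 in WT and 30 in deficient lymph node. The genotypes did not overlap, and the level was low in all 4 libraries, at most 15.0 CPM. The ratio was 10.8 (95% counting interval 5.74 to 22.4) in spleen. In the lymph node it was 8.97 when WT is set at a floor of 3 reads. On the reads as counted, the lower end of the 95% counting interval there was 6.86-fold. Its unadjusted p was 0.00518 and its edgeR adjusted p 0.519, so it did not pass. Epas1 passed the filter on low counts only through the deficient libraries, where it was high, so its p-value carries that selection. The myeloid marker sum was 14.2 CPM in WT and 10.7 CPM in deficient spleen, and 49.6 and 319 CPM in the lymph node. Its part in the Epas1 values was not tested.

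Hif1a, the main alpha subunit in T cells (mm9 chr12:75002362-75048517), was lower in both deficient libraries. It stood at 294 and 258 CPM in WT and deficient spleen and at 266 and 182 CPM in WT and deficient lymph node. On total exon reads the genotypes did not overlap. The ratio was 0.878 (95% counting interval 0.823 to 0.938) in spleen and 0.682 (0.623 to 0.747) in the lymph node, with a log2 fold change of -0.37 ± 0.21 (SE) and an adjusted p of 0.890 by edgeR. Only 18.1% of the Hif1a reads were uniquely placed. The share was 23.9% and 21.4% in WT and deficient spleen and 8.35% and 9.17% in WT and deficient lymph node. On those reads alone its log2 fold change was -0.38, but the genotypes overlapped, with deficient spleen above WT lymph node. Egln1, the main oxygen-sensing prolyl hydroxylase, had 62.3, 59.8, 71.6 and 53.7 CPM, ratios of 0.961 and 0.750. Egln3, a hydroxylase that is itself induced by hypoxia, had 71, 53, 11 and 6 reads.

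The hypoxia targets outside glycolysis did not move as one. Ddit4 (mm9 chr10:59412423-59414518) stood at 185 and 124 CPM in WT and deficient spleen and at 8.56 and 4.82 CPM in WT and deficient lymph node. The deficient library was the lower of each pair, at 0.667 times WT (95% counting interval 0.609 to 0.730) and 0.564 times (0.315 to 0.988), while the tissues lay far apart. Its log2 fold change was -0.67 ± 0.28 (SE), with an unadjusted p of 0.0391 and an edgeR adjusted p of 0.890. Mxi1, a MAX partner that opposes MYC, had 27.6, 20.9, 24.2 and 19.3 CPM, ratios of 0.757 and 0.797. Bnip3, a mitophagy receptor, had 39, 27, 97 and 106 reads. P4ha1, a subunit of the collagen prolyl hydroxylase, had 68.1 and 54.8 CPM in spleen and 29.6 and 70.4 CPM in the lymph node. Its ratio was 0.805 (0.699 to 0.927) in spleen and 2.38 (1.92 to 2.96) in the lymph node, where WT was the lowest library.

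The sequence before the start of 4 of these genes is shown because 3 of them (Pgk1, Pdk1 and Ddit4) had an unadjusted p below 0.05 and Ldha had the highest level. Epas1, the other gene at that p, is not among the windows used. Hypoxia-inducible factors bind a short core in DNA, ACGTG or GCGTG. Each line gives the 250 bases before an annotated start, 5′ to 3′ on the gene's strand, from RefSeq promoter windows on GRCm38.p6, with the core on either strand in capitals.
Pgk1, chrX:106186850-106187099, plus strand: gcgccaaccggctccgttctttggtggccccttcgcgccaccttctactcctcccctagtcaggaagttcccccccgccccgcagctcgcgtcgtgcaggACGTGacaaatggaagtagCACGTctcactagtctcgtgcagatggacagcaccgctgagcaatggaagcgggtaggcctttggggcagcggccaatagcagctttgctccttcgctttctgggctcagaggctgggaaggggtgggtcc
Ldha, chr7:46845554-46845803, plus strand: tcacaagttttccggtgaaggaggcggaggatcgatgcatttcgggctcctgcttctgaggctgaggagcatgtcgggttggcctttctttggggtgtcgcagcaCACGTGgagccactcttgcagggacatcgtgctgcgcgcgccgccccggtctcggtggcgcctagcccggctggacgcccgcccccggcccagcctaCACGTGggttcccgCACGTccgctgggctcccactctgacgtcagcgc
Pdk1, chr2:71872974-71873223, plus strand: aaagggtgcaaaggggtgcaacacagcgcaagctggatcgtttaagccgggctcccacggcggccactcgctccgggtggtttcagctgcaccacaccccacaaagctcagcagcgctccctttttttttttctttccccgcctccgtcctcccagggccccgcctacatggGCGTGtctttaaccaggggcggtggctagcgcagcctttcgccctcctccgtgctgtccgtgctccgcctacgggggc
Ddit4, chr10:59951771-59952020, minus strand: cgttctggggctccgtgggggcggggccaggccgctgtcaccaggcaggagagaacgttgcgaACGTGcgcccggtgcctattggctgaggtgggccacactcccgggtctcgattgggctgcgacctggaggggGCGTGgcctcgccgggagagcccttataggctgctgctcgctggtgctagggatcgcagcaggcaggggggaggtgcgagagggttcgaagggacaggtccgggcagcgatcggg

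Pgk1 held 2 matches in its 250 bases, Ldha 5, Pdk1 1 and Ddit4 2. In Ldha, 2 runs read CACGTG, a palindrome that counts as a match on each strand and is also the letters of the E-box bound by MYC and MAX. Ldha and Pdk1 each had 2 windows listed, of which the first is printed. Among all RefSeq windows of 300 bases, 43.77% held a match to the core on either strand and 7.15% held CACGTG. Of 47 windows of these genes, which cover 32 of the 34 (not Slc2a3 and Epas1), 39 held a match and 6 held CACGTG. A match is a description of letters and not a measured site, and genes with a match included both higher (Pgk1) and lower (Pdk1, Ddit4) values in the deficient Tregs.

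In the lists of neighbouring pathways, 0 genes were called between genotypes by edgeR. Over all genes tested, 4.88% had an unadjusted edgeR p below 0.05. Of 12 tested other glycolytic isozymes and regulators, 1 had an unadjusted edgeR p below 0.05. This was Eno3, the muscle-type enolase, with 246, 129, 743 and 218 reads in WT spleen, deficient spleen, WT lymph node and deficient lymph node (edgeR adjusted p = 0.525). Pfkfb2, another activator of phosphofructokinase, had 285, 209, 15 and 88 reads. Bpgm, the bisphosphoglycerate mutase, had 180, 133, 85 and 270 reads. Both were higher in the deficient lymph node, with log2 ratios of 2.29 and 1.49. Pkm2, the row for pyruvate kinase, which ends the chain, had 4177, 3038, 3683 and 6013 reads, log2 ratios of -0.01 in spleen and 0.55 in the lymph node, close to the medians of the chain.

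Of 8 other pentose phosphate genes, 1 was higher and 3 were lower in both pairs. Those of smallest p were Rpia, the ribose phosphate isomerase, with 374, 241, 84 and 25 reads, and Prps2, which makes the activated ribose for nucleotides, with 673, 379, 1015 and 869 reads. Of 10 genes for pyruvate entry into mitochondria, 0 were higher and 4 lower in both pairs. Dld, a subunit shared by the dehydrogenase complexes, had 557, 409, 1221 and 788 reads. Of 16 genes of the tricarboxylic acid cycle, 7 were higher and 3 lower in both pairs. Idh3a, an isocitrate dehydrogenase subunit, had 370, 387, 901 and 1315 reads, and Cs, citrate synthase, 1211, 984, 1425 and 2490. Ogdh had 1417, 998, 892 and 2255 reads.

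Of 11 tested components of the hypoxia pathway, 5 were higher and 5 lower in both pairs, beside the same 27.7% and 29.16% of all genes. Arnt2, a relative of the beta subunit Arnt, had 82, 224, 0 and 97 reads (edgeR adjusted p = 0.525), and like Epas1 it was at 0 in WT lymph node. Tceb1, elongin C of the VHL ligase, had 219, 210, 411 and 611 reads. Of 18 tested other targets of the hypoxia factors, 1 had an unadjusted p below 0.05. This was Bhlhe40, a transcriptional repressor, with 274, 551, 438 and 836 reads, higher in the deficient library of both pairs (log2 fold change 1.11 ± 0.26 SE, edgeR adjusted p = 0.268). Car12, a carbonic anhydrase, had 112, 43, 92 and 45 reads, and the histone demethylase Kdm4b 411, 270, 75 and 34, both lower in both pairs. Of 18 tested upstream regulators of glycolysis, 3 were higher and 8 lower in both pairs. Foxo1, which opposes growth signals, had 2543, 989, 1569 and 944 reads, lower in both deficient libraries (log2 fold change -0.90 ± 0.20 SE, edgeR adjusted p = 0.215). Txnip, which restrains glucose uptake, had 5612, 4722, 1912 and 3558 reads with 11.6% uniquely placed, and Akt1 had 993, 791, 12 and 63 reads.

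The larger contrast in the set lay between the lymph node and the spleen. The labels' protocols give one RNA and library kit to samples 1 and 2 and another to samples 3 and 4, which in listing order are the spleen and the lymph node libraries, so that tissue and kit cannot be told apart. Of the 33 genes, 14 were called higher in the lymph node and 4 lower by edgeR, while 23.3% of all genes were called higher and 22.2% lower. In fits on tissue alone, the number called depended on which library was left out, in the set and over all genes. The 14 were Gpi1, Pfkp, Aldoa, Tpi1, Gapdh, Pgk1, Eno1, Ldha, Ldhb, Pdha1, G6pdx, Tkt, Taldo1 and Bnip3. They include 7 of the 14 enzymes of the chain, the 3 pentose phosphate genes and 3 of the 6 lactate and pyruvate genes. The largest log2 fold changes were those of Ldha, at 2.61 ± 0.19 (SE, edgeR adjusted p = 3.57e-06), Eno1, at 2.53 ± 0.18, and Ldhb, at 2.29 ± 0.25. Pdha1 was higher by 2.11 ± 0.19 and Taldo1 by 1.93 ± 0.21 on the log2 scale, while Gpi1 and Tkt, at 0.90 each, were the smallest of the 14. For each of these 14 genes both lymph node libraries lay above both spleen libraries. The calls came from the same libraries, so this is a description and no separate support.

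The 4 genes called lower in the lymph node were Ddit4, Hk1, Pfkl and Slc16a3. Ddit4 had a log2 fold change of -4.55 ± 0.31 (SE, edgeR adjusted p = 3.14e-06), with 1461 and 715 reads in WT and deficient spleen against 35 and 22 in the lymph node. Hk1 had a log2 fold change of -2.01 ± 0.30 (edgeR adjusted p = 0.000297) and Pfkl of -0.95 ± 0.35 (edgeR adjusted p = 0.0473). Slc16a3 had 94 and 45 reads in spleen and 0 and 1 in the lymph node (edgeR adjusted p = 0.00532). This gene passed the filter on low counts only through the spleen libraries. It overlaps Csnk1d, which had 1640, 1191, 227 and 523 reads, and no source used here states whether strand was used in the counting. In all 4 cases both lymph node libraries lay below both spleen libraries, again the libraries that gave the calls. On uniquely placed reads G6pdx (edgeR adjusted p = 0.205) and Pfkl (edgeR adjusted p = 0.0585) were no longer called, and Hif1a was called lower, at -1.66 (edgeR adjusted p = 0.00376).

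Exon length ran with the tissue difference across all genes. The median exon length was 2701 bases for genes called higher in the lymph node, 4520.5 for those called lower and 3659 for all tested. It was 2868 bases for the 14 and 4856.5 for the 4 genes of the set, and the part of length in these calls was not tested. Of the tricarboxylic acid cycle genes, 14 of 16 were called higher in the lymph node and 0 lower, as a comparison list.

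**Figure D3:**
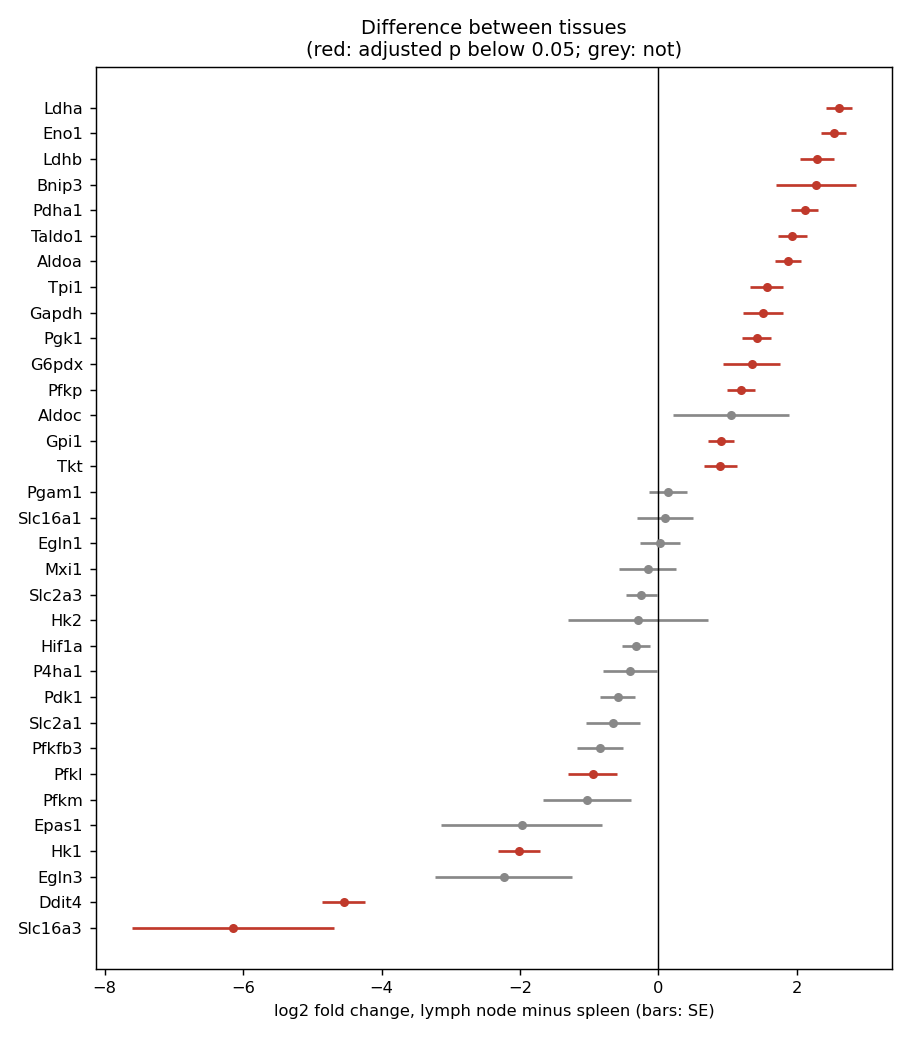
Log2 fold change of lymph node against spleen for the 33 tested genes, from edgeR on 2 libraries per tissue, with bars for the SE. Red marks an adjusted p below 0.05, which 14 genes passed on the right and 4 on the left, with Ldha and Eno1 at the right end and Ddit4 and Slc16a3 at the left.

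The same member led each enzyme family in all 4 libraries, in shares that differed between libraries. Tissue and kit cannot be told apart here either. Of phosphofructokinase reads, Pfkp took 65.0% in WT and 66.8% in deficient spleen, 92.4% in WT lymph node (95% exact binomial interval 90.9% to 93.7%) and 86.0% in deficient lymph node (84.3% to 87.5%). Pfkm took 9.89%, 8.17%, 1.38% and 4.54% in the same order. Both lymph node libraries lay above both spleen libraries for Pfkp, and the deficient one stood closer to the spleen. Hk2 took 3.17% and 3.65% of the Hk1 and Hk2 reads in spleen and 10.9% and 9.96% in the lymph node, from 13 and 25 reads in the latter. Ldhb took 10.2% and 8.85% of lactate dehydrogenase reads in WT and deficient spleen, and 8.97% and 6.80% in the lymph node, so the deficient library was lower in each tissue. Aldoc took 2.99%, 1.11%, 1.28% and 0.867% of aldolase reads. Epas1 took 0.472% and 5.51% of the Hif1a and Epas1 reads in WT and deficient spleen, and 0 of 1090 reads in WT against 3.49% in deficient lymph node. On uniquely placed reads, where Hif1a loses most of its count, the share was 1.95% and 21.4% in spleen and 28.3% in the deficient lymph node. Shares are of reads and not scaled for exon length, and their intervals cover counting error only.

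**Figure D4:**
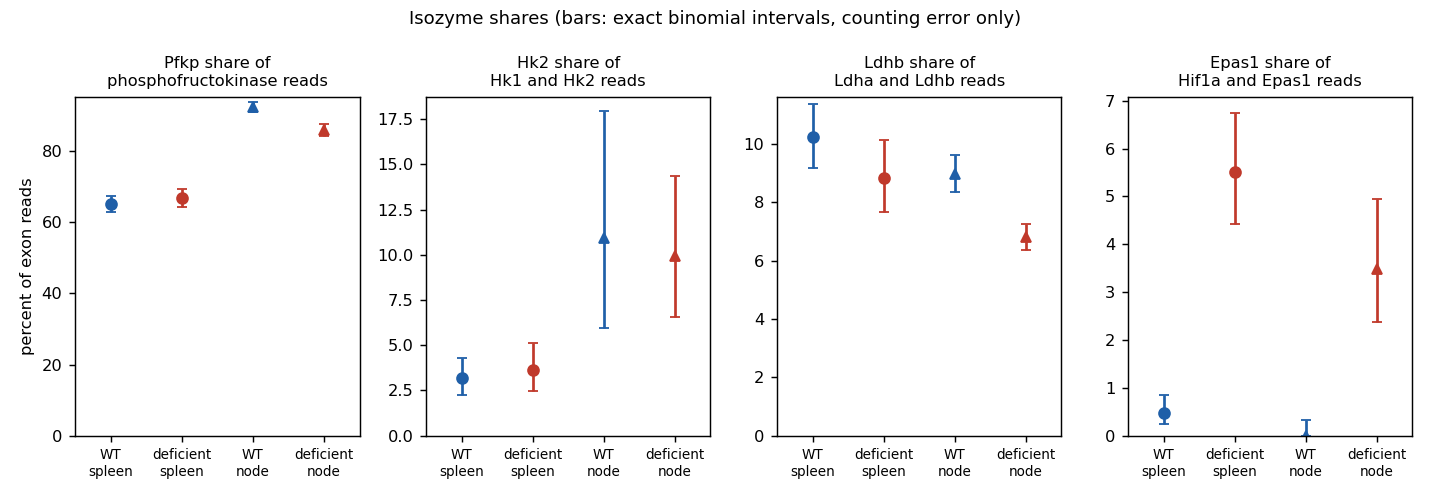
Share of exon reads of 1 family member within its family, in percent, for phosphofructokinase, hexokinase, lactate dehydrogenase and the 2 hypoxia factors, with 95% exact binomial intervals (counting error only). Blue is WT, red Csnk2b-deficient, circles spleen and triangles lymph node, with 1 library per symbol. The Pfkp share runs from 65.0% in WT spleen to 92.4% in WT lymph node, and the Epas1 share is higher in the red than in the blue library of each tissue.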

How the data were processed

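The deposited tables list counts of exon reads per gene for each library, per the file headers, as total reads, with multiply placed reads included, and as uniquely placed reads. The submitters' processing notes name CASAVA 1.8.2 and the build mm9. No source used here names the aligner, the annotation or the use of strand. Features without an exon length, 9551 of 37583, all with 0 exon reads, were left out. Total exon reads were the counts analysed.

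Libraries were grouped by the labels. Replicate 1 is the spleen and replicate 2 the tracheal lymph node in both genotypes, which makes the replicate number a pairing by tissue. Same-numbered libraries deviated together from their genotype means (r = 0.783 over genes). With 2 libraries per genotype this r is the correlation of the tissue differences in the 2 genotypes. It reflects tissue and kit and cannot test any other pairing. The fit, in edgeR 4.0.16 and R 4.3.3, had terms for tissue and genotype, with filterByExpr by genotype, TMM scaling, robust dispersion, the quasi-likelihood test and Benjamini-Hochberg adjustment over 11113 genes at 0.05. It has 1 residual degree of freedom (biological coefficient of variation 30.0%). The spread of each gene was moderated across genes with 10.1 prior degrees of freedom, so p-values rest mostly on that shared spread. The SE divides the log2 fold change by the root of its F statistic. On simulated counts the fit called 194 genes, of which 189 were among 200 changed. How many genes it would recover at the spread and fold changes of these libraries was not tested. Log2 ratios used for medians and the 2-fold counts had a prior count of 2, and ratios with intervals had none. CPM per kilobase used the deposited exon lengths. Alternatives used DESeq2 1.42.0 and limma 3.58.1 among others.

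The genes and lists were chosen with earlier results of these data known. The text names all 34, the targeted gene and Foxp3, Pkm2, and from each other list up to 3 genes of smallest p; Csnk2a1 and Csnk2a2, the catalytic subunits, had log2 fold changes of -0.17 and -0.41. Promoter sequences are RefSeq's. Vegfa was counted but not tested.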

Additional observations from a re-analysis of the deposited data

Results flagged for a closer look

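For 3 genes the deficient library lay on opposite sides of WT in the 2 tissues, with both counting intervals away from a ratio of 1. P4ha1 had a log2 ratio of 1.25 in the lymph node and -0.31 in the spleen. Tkt had 0.42 in the lymph node and -0.38 in the spleen. Pfkfb3 had 0.39 in the lymph node and -0.29 in the spleen. With 1 library per genotype and tissue the difference was not tested. The share of all genes that met the same rule was not counted. In the spleen pair alone the counting interval lay above 1 for 13.2% and below 1 for 15.8% of all genes. In the lymph node pair alone it did so for 32.8% and 30.5%.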

How the results depend on the processing

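None of the 33 tested genes was called between genotypes under any setting. The count of all genes called, 16 with TMM scaling and edgeR, was 4 with median-of-ratios size factors, 111 without a filter on low counts, 7 on uniquely placed reads, 54 with DESeq2 and 64 with limma-voom. Without the replicate block that pairs the libraries by tissue edgeR called 0 genes, with 29 at an unadjusted p below 0.05, and leaving out single libraries from that fit gave 0 to 1. The median log2 fold change of the 33 ranged from -0.23 (without the deficient lymph node, no block) to 0.41 (without the deficient spleen, no block) when libraries were left out in turn. A prior count of 5 left 1 of 33 past 2-fold in the spleen. A 1.5-fold limit gave 4 (spleen) and 10 (lymph node). For the tissue comparison, leaving out each library in turn from a fit on tissue alone, an alternative chosen after seeing the data, gave 11 (without WT spleen) to 22 of 33 genes called, and 2186 (without WT spleen) to 7874 (without deficient lymph node) of all genes, with 2322 without deficient spleen. Settings other than left-out libraries gave 17 to 20 of 33. Of 264 log2 fold changes of single genes under the other settings, 260 kept direction and call. The exceptions were Pgam1 at -0.0198 on uniquely placed reads, Slc16a3 at 0.14 with DESeq2, and Pfkfb3 at -0.0657 with limma-voom and -0.0465 without the replicate block. Leaving out 1 library makes genotype and tissue overlap in the fit on genotype alone, and 24 genes then changed sign in at least 1 fit. Their log2 fold changes over all fits that leave out a library were as follows. They ran for Slc2a1 from -0.73 to 0.0446, Hk1 -0.86 to 1.91, Gpi1 -0.23 to 0.86, Pfkl -0.22 to 1.12, Pfkm -0.24 to 1.92, Pfkp -0.61 to 0.80, Pfkfb3 -0.49 to 0.69, Aldoa -0.95 to 1.47. The range was, for Tpi1 from -0.89 to 1.07, Gapdh -0.75 to 1.14, Pgk1 -0.44 to 1.31, Pgam1 -0.12 to 0.21, Eno1 -1.44 to 2.07, Ldha -1.62 to 2.02, Ldhb -1.68 to 1.43, Slc16a3 -4.67 to 7.30. It was, for Pdha1 from -1.50 to 1.31, G6pdx -0.83 to 0.91, Tkt -0.61 to 0.64, Taldo1 -1.29 to 1.24, Egln3 -2.16 to 1.00, Bnip3 -1.56 to 1.52, P4ha1 -0.29 to 1.25, Ddit4 -4.35 to 2.94. On uniquely placed reads 10 of 36 isozyme shares left their counting interval. Depth limits Vegfa, Slc16a3, Epas1, Egln3 and Hk2, which had few reads in the lymph node.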
